A study of Oryza sativa with 35 samples.

Results

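A stretch of rice chromosome 12, from LOC_Os12g32000 to LOC_Os12g41000 by locus number, was followed in inflorescence meristems of the cultivar Koshihikari and of the line NIL-Gn1. The stretch was drawn around LOC_Os12g34062 and LOC_Os12g39970, selected on their higher counts in NIL-Gn1 in these same libraries. Its members are the 166 loci with at least 100 unique molecular identifiers (UMIs, each taken as 1 captured transcript) summed over 35 libraries. They are 166 of the 877 rows of the count table in this interval and of its 55801 rows in all. Of the other rows of the interval, 495 had no UMI and 216 had 1 to 99. Locus numbers are used here as the order of loci and carry no distance. Of the 877 rows of the interval, 42 stand in the table after a row of higher number, so which loci are neighbours depends on the order taken. The files give no coordinates, and no table used here pairs these locus names with gene names, so members are given by identifier only.

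Koshihikari is a japonica cultivar, and NIL-Gn1 is, by its name, a near-isogenic line for the grain number locus Gn1. Its donor and Gn1 allele are not named in the labels, which also leave the codes R1, R2, R4 and R5 undefined. All plants were grown in short days with 10 h of light, and polyadenylated RNA was sequenced by a modified CEL-Seq2, a 3′ tag method. In the order R1, R2, R4 and R5 there were 5, 5, 3 and 3 libraries of Koshihikari, and 8, 8, 1 and 2 of NIL-Gn1. Nothing in the labels ties the libraries of 1 group to different plants, so p-values measure the spread between libraries, which may be technical.

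A near-isogenic line is made by crossing a donor to a recurrent parent and backcrossing, so that most of the genome returns to the parent and a segment around the selected locus is kept. Unselected donor segments can also be kept elsewhere, and alleles of neighbouring genes in such a segment are inherited together. Where donor and parent alleles of a gene differ in regulation or in mapped sequence, its transcript count can differ between line and parent. Gn1 lies on chromosome 1, and its gene Gn1a encodes the cytokinin oxidase OsCKX2, which degrades cytokinin in the inflorescence meristem. The comparison asks whether LOC_Os12g34062 and LOC_Os12g39970 stand alone on chromosome 12 or among neighbours that also differ between the lines. No genotype of the plants was analysed here.

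Library totals ran from 76743 to 375071 UMIs (median 133163), and a count of 0 allows up to 3 counts, which are worth 39.1 CPM (counts scaled to a common library size) in the shallowest library and 8 CPM in the deepest. These limits cover counting error only. NIL-Gn1 libraries were the deeper, with a median of 186188 UMIs against 109532, and held 63.4% of all UMIs. LOC_Os03g51690, known as OSH1, a homeobox gene that marks the meristem, had UMIs in every library, at 97.7 to 502 CPM. LOC_Os01g10110, known as OsCKX2, had 3 UMIs in all and was at 0 in 32 of 35 libraries, so its level does not check the line labels. On principal component 1, with 14% of the variance, all R1 and R2 libraries had negative scores. The R4 and R5 libraries scored 37.2 to 49.4 in Koshihikari and 17.1 to 25.7 in NIL-Gn1. Comparisons that use R4 or R5 hold this difference between lines too, and its part in them was not tested. Koshihikari R2 replicates 1, 4 and 5 stood apart on principal components, replicate 1 on component 2 and replicates 4 and 5 on component 4. NIL-Gn1 R5 replicate 2 stood apart on components 3 and 4. The main values that rest on these libraries are given with and without them. In bulk tissue, fewer cells of a type and less RNA per cell cannot be told apart.

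Members were unevenly covered. Their totals ran from 100 UMIs for LOC_Os12g38630 to 6201 for LOC_Os12g38000, with a median of 266, and together they held 94% of the UMIs of the interval. Just inside the minimum were LOC_Os12g38630, LOC_Os12g38930 and LOC_Os12g37430 with 100, 101 and 102 UMIs, and just outside it LOC_Os12g39090, LOC_Os12g34920 and LOC_Os12g36580 with 97, 99 and 99. The first members by number were LOC_Os12g32180 and LOC_Os12g32240 and the last were LOC_Os12g40890 and LOC_Os12g40900. A filter on low counts kept 129 members among 7406 tested loci. The 37 members that it left out had 100 to 227 UMIs. No member was at 0 in every library of a line.

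LOC_Os12g39970 had the largest difference between lines among the tested members over R1 and R2. At R1 its level in Koshihikari was 31.7, 10.9, 82.5, 74.7 and 71.4 CPM, and in the 8 NIL-Gn1 libraries it ran from 352 to 509 CPM with a median of 405. At R2 the Koshihikari levels were 61.1, 59, 27, 55.8 and 42.2 CPM, and those of NIL-Gn1 ran from 306 to 589 CPM with a median of 395. The lowest NIL-Gn1 library was above the highest Koshihikari library at both codes. Of the 7406 tested loci, LOC_Os12g39970 was the only one with NIL-Gn1 above Koshihikari without overlap at both R1 and R2. In the other direction, 4 tested loci had NIL-Gn1 below Koshihikari without overlap at both codes. The later codes had fewer libraries. At R4 the levels were 21.9, 30.8 and 66.4 CPM in Koshihikari and 522 CPM in the single NIL-Gn1 library, and at R5 they were 106, 199 and 34.7 CPM against 442 and 453 CPM. No library of one line reached the range of the other at either code. The log2 fold change, NIL-Gn1 minus Koshihikari, at R1 was 2.79 (SE 0.252), and it was 3.21 (SE 0.288) at R2; R4 had 3.70 (SE 0.451) and R5 2.04 (SE 0.358). Without NIL-Gn1 R5 replicate 2 the R5 value was 2.05 (SE 0.404). Over R1 and R2 together it was 3.00 (SE 0.191). In UMIs the locus had 106 in Koshihikari and 1342 in NIL-Gn1, a NIL-Gn1 share of 92.7% (exact 95% interval 91.2 to 94%). These differences chose the locus and carry no test.

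Within a line, LOC_Os12g39970 did not pass the test of late against early codes. Its log2 difference between late codes (the mean of R4 and R5) and early codes (the mean of R1 and R2) was 0.34 in Koshihikari (SE 0.344, edgeR adjusted p = 0.543) and 0.20 in NIL-Gn1 (SE 0.198, edgeR adjusted p = 0.698). The difference between lines did not pass the test for a change from early to late codes (−0.13, SE 0.391, edgeR adjusted p = 0.931).

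The loci next to LOC_Os12g39970 had values near 0. The nearest tested members, LOC_Os12g39860 before it and LOC_Os12g39980 after it, had log2 fold changes of 0.18 and 0.13 over R1 and R2. Among the 10 tested members on each side, 12 of 20 had positive values, the median was 0.09 and the range was −1.13 to 0.49. A locus is called here when its adjusted p, over all 7406 tested loci, was under 0.05. The only called members among these 20 were LOC_Os12g39200 and LOC_Os12g40510, both lower in NIL-Gn1, at −0.80 and −1.13. Of all tested loci, 2.32% were called over R1 and R2. The 4 rows directly before LOC_Os12g39970, from LOC_Os12g39930 to LOC_Os12g39960, had no UMI. LOC_Os12g39980, directly after it, had 175 UMIs in Koshihikari and 367 in NIL-Gn1. The next row, LOC_Os12g39990, is no member, and its 10 UMIs were all from NIL-Gn1 (exact 95% interval of the share 69.2 to 100%). Across 35 libraries, the deviation of LOC_Os12g39970 from its group mean correlated between −0.138 and 0.102 (Pearson, as a description) with that of its 3 nearest tested members on each side. These points share libraries and depth.

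**Figure D1:**
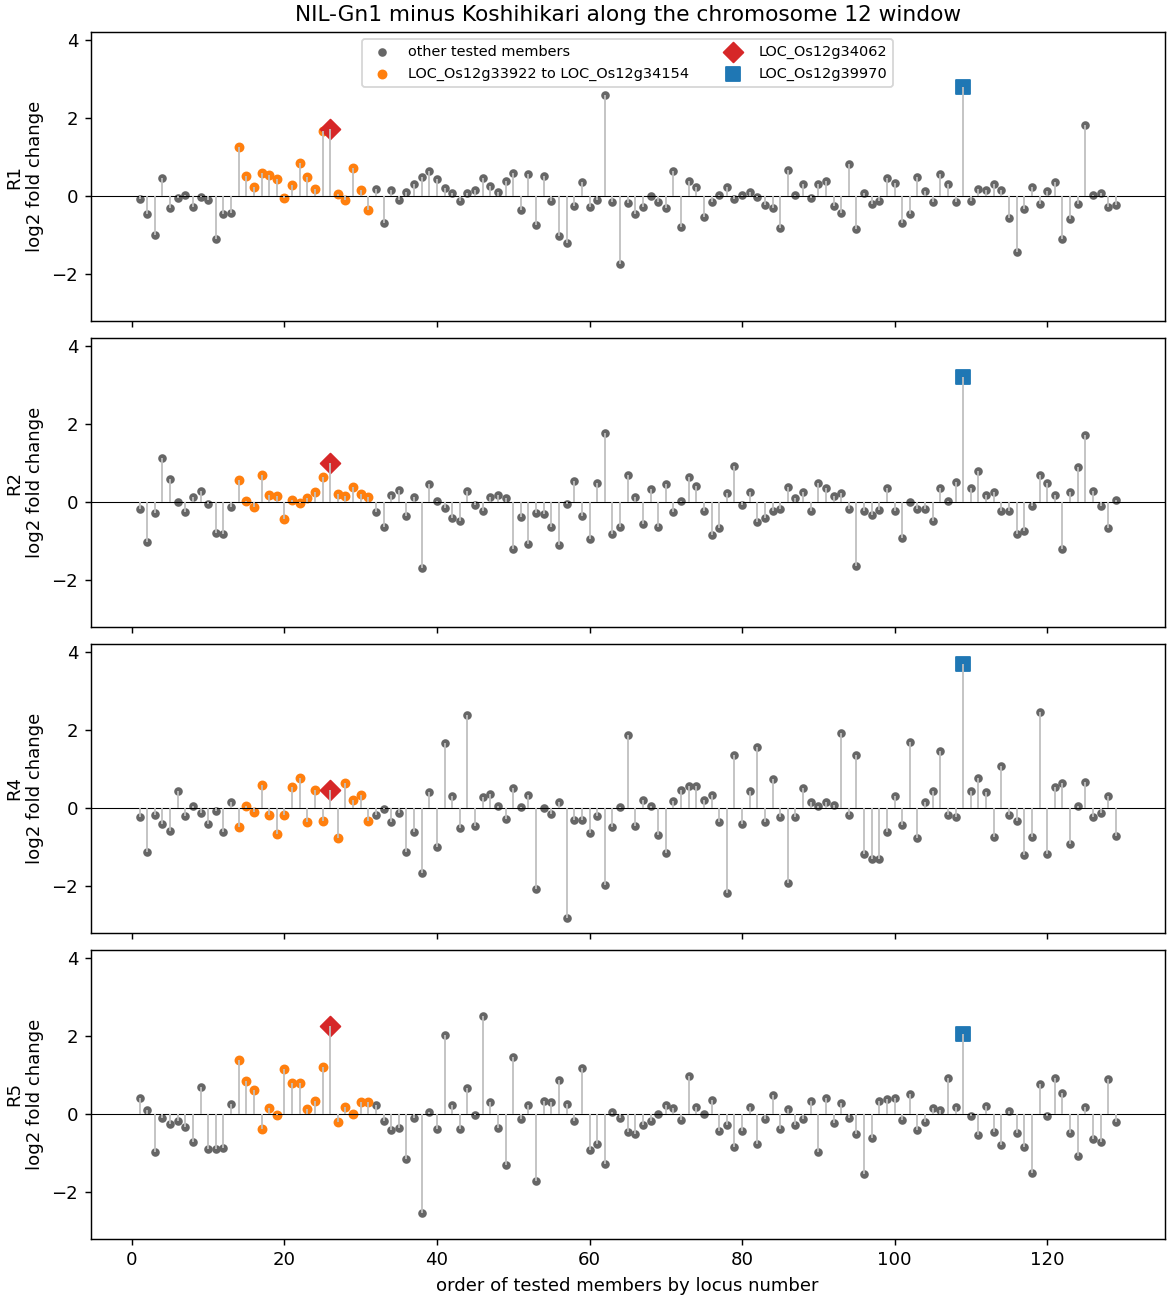
Log2 fold change, NIL-Gn1 minus Koshihikari (vertical axis), of the 129 tested members in order of locus number (horizontal axis), with 1 panel for each of R1, R2, R4 and R5. The blue square, LOC_Os12g39970, is at 2.79, 3.21, 3.70 and 2.04 and stands among grey points on either side of 0, and the red diamond, LOC_Os12g34062, stands in the orange run LOC_Os12g33922 to LOC_Os12g34154, of which 15 of 18 members are above 0 at R1 and at R2.

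LOC_Os12g34062 differed less, and less evenly. At R1 its Koshihikari levels were 42.3, 76.3, 36.7, 33.9 and 58 CPM, all below the NIL-Gn1 range of 101 to 226 CPM (median 160). At R2 they were 110, 23.6, 32.4, 139 and 98.4 CPM, and the NIL-Gn1 range was 95.6 to 245 CPM (median 129). The R2 ranges thus overlapped, through Koshihikari replicates 1, 4 and 5, the libraries that stood apart. At R4 the levels were 43.8, 51.3 and 33.2 CPM in Koshihikari and 59.3 CPM in NIL-Gn1, and at R5 57.7, 11.1 and 43.4 CPM against 143 and 259 CPM. The log2 fold changes at R1 and R2 were 1.71 (SE 0.307) and 1.00 (SE 0.314), those at R4 and R5 were 0.46 (SE 0.653) and 2.25 (SE 0.52), and the value was 1.36 (SE 0.219) over R1 and R2. Keeping only Koshihikari R2 replicates 2 and 3, the value at R2 was 2.27 (SE 0.482). Without NIL-Gn1 R5 replicate 2 the value at R5 was 1.87 (SE 0.596). Its UMIs were 91 in Koshihikari and 465 in NIL-Gn1, a share of 83.6% (exact 95% interval 80.3 to 86.6%). As for LOC_Os12g39970, these values chose the locus and carry no test.

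The loci around LOC_Os12g34062 depend on the order taken. By locus number, 15 of the 20 nearest tested members had positive values over R1 and R2, with a median of 0.17 and a range from −0.66 to 1.16, and LOC_Os12g34058 was the only one called. By table row it was 12 of 20, with a median of 0.14 and a range from −0.95 to 0.91. LOC_Os12g33922, higher, and LOC_Os12g33180, lower, were called in that order. Of all tested loci, 2.32% were called over R1 and R2. For LOC_Os12g39970 both orders gave the 12 of 20 and the median of 0.09 stated above. By number, LOC_Os12g34062 lies in a densely numbered run from LOC_Os12g33922 to LOC_Os12g34154, of 40 rows in the table, of which 34 had a UMI and 18 are members, all tested. LOC_Os12g34058, the tested member directly before it by number, was at 31.7, 65.4, 45.9, 20.4 and 44.6 CPM in Koshihikari at R1 and at 65.2 to 209 CPM (median 140) in NIL-Gn1. These ranges met only at their edge, 65.4 against 65.2 CPM. LOC_Os12g34058 had a log2 fold change of 1.67 at R1 (SE 0.342, edgeR adjusted p = 0.00156) and 1.16 over R1 and R2 (SE 0.237, edgeR adjusted p = 0.000765). It varied with the chosen LOC_Os12g34062 within groups, as given below, so these tests are not independent of that choice. At R2 its Koshihikari levels of 73.3, 11.8, 48.5, 167 and 126 CPM overlapped the NIL-Gn1 range of 58.2 to 189 CPM, and the log2 fold change of 0.64 did not pass the test (edgeR adjusted p = 0.501).

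LOC_Os12g33922 opens the run by number. Its levels at R1 were 31.7, 65.4, 45.9, 20.4 and 49.1 CPM in Koshihikari and 48.9 to 142 CPM (median 97) in NIL-Gn1, and at R2 48.9, 11.8, 37.8, 126 and 141 CPM against 60.2 to 143 CPM (median 90.8). Both pairs of ranges overlapped. Over R1 and R2 it was higher in NIL-Gn1 by 0.91 on the log2 scale (SE 0.248, edgeR adjusted p = 0.0233). This call was lost without any of 4 libraries, Koshihikari R1 replicate 4, Koshihikari R2 replicate 2 or 3 and NIL-Gn1 R1 replicate 3, with adjusted p-values of 0.0712, 0.0759, 0.0905 and 0.0502 (edgeR).

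At R4 the levels of LOC_Os12g33922 and LOC_Os12g34058 were not higher in NIL-Gn1, at 27.7 and 39.5 CPM in its single library. Their log2 fold changes there were −0.50 and −0.34, and at R5 they were 1.39 and 1.20. None of these 4 values passed the test, with adjusted p-values of 0.932, 0.944, 0.427 and 0.467 (edgeR). Without NIL-Gn1 R5 replicate 2 the R5 values were 1.35 and 1.06. Keeping only those replicates 2 and 3, the R2 values of LOC_Os12g33922 and LOC_Os12g34058 were 1.72 and 1.74 (edgeR adjusted p = 0.206 and 0.0976).

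**Figure D2:**
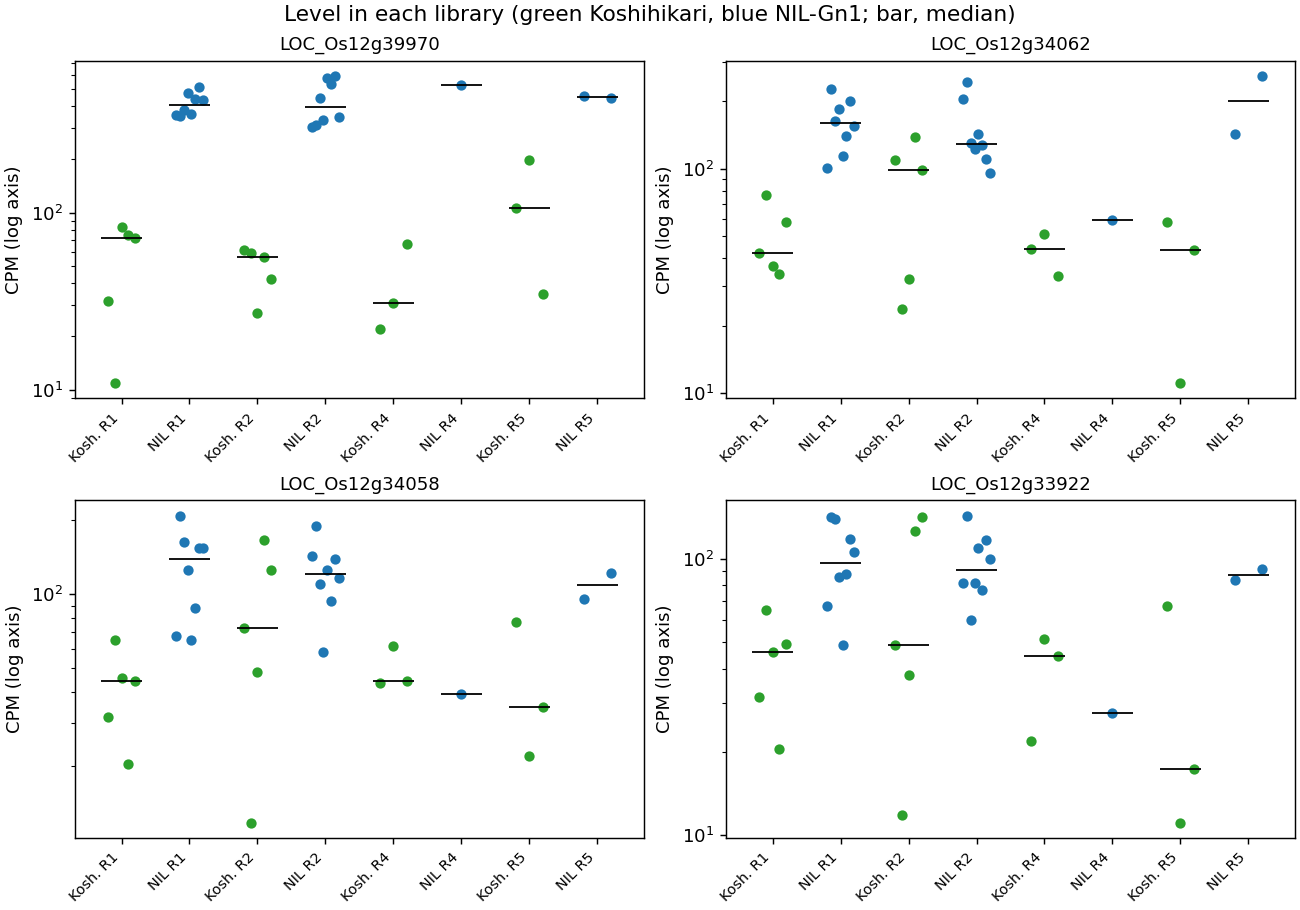
Level (CPM, log axis) of LOC_Os12g39970, LOC_Os12g34062, LOC_Os12g34058 and LOC_Os12g33922 in each library, by line and code, with a bar at the median of each group. All NIL-Gn1 points of LOC_Os12g39970, from 306 CPM upward, are above all Koshihikari points, up to 199 CPM, and for the other 3 loci the Koshihikari R2 points spread from 11.8 or 23.6 CPM into the NIL-Gn1 range.

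The 3 higher loci of the run also varied together within groups. The correlation of their deviations from the group means was 0.909 for LOC_Os12g33922 with LOC_Os12g34058, 0.825 for LOC_Os12g34058 with LOC_Os12g34062 and 0.735 for LOC_Os12g33922 with LOC_Os12g34062 (Pearson, 35 libraries, on log2(CPM + 8), as a description). For each of the 3, the other 2 were the most alike of all 7406 tested loci. In the 32 libraries other than Koshihikari R2 replicates 1, 4 and 5 these correlations were 0.866, 0.737 and 0.636. LOC_Os12g33922 and LOC_Os12g34058 were then still the most alike to each other, while LOC_Os12g34062 ranked 3 for LOC_Os12g33922 and LOC_Os12g33922 ranked 10 for LOC_Os12g34062. LOC_Os12g33922 and LOC_Os12g34058 had equal UMI counts in 8 of 35 libraries. In the table's own row order LOC_Os12g34062 comes directly after LOC_Os12g33922, and 25 rows of the run stand after a row of higher number. The next 10 tested members by row, LOC_Os12g33944 to LOC_Os12g34056, are in number order among themselves. Whether the authors' counting split reads among like loci, or used strand, is not given in the sources used here, so the separate values of these 3 loci are uncertain. The line tests of LOC_Os12g33922 and LOC_Os12g34058 are thus not independent of the choice of LOC_Os12g34062. The most alike loci to LOC_Os12g39970 lay elsewhere, led by LOC_Os11g36430 (0.705) and LOC_Os03g44560 (0.687).

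Over all 153 pairs of the run the median correlation was 0.234, with a range from −0.557 to 0.953, the highest for LOC_Os12g34056 with LOC_Os12g34128. Neighbouring members outside the run had a median of 0.0204 over 110 pairs, and all pairs outside the run −0.00388 over 6105 pairs. In the 32 libraries the run's median was 0.281, and that of neighbouring members outside it 0.0409. The median log2 fold change of its 18 members over R1 and R2 was 0.28, with 16 above 0, against a median of −0.02 for the 111 tested members outside it. Those above 0 numbered 15 of 18 at R1 and again at R2, then 9 at R4 and 14 at R5. The remaining 15 members were not called in any comparison of lines, with a smallest adjusted p of 0.105 over R1 and R2 (edgeR). There 2 of the 15 had an unadjusted p under 0.05, as had 26 of the 111 members outside the run. The median log2 fold change of the 15 over R1 and R2 was 0.22, with 13 above 0 and a range from −0.23 to 0.64. At R1, R2, R4 and R5 it was 0.28, 0.15, 0.06 and 0.31, with 12, 12, 8 and 11 above 0, and 4, 1, 0 and 3 had an unadjusted p under 0.05. The 111 members outside the run had medians of −0.03, −0.07, −0.14 and −0.13 at these codes. Of these, 11, 25, 11 and 9 had an unadjusted p under 0.05.

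**Figure D3:**
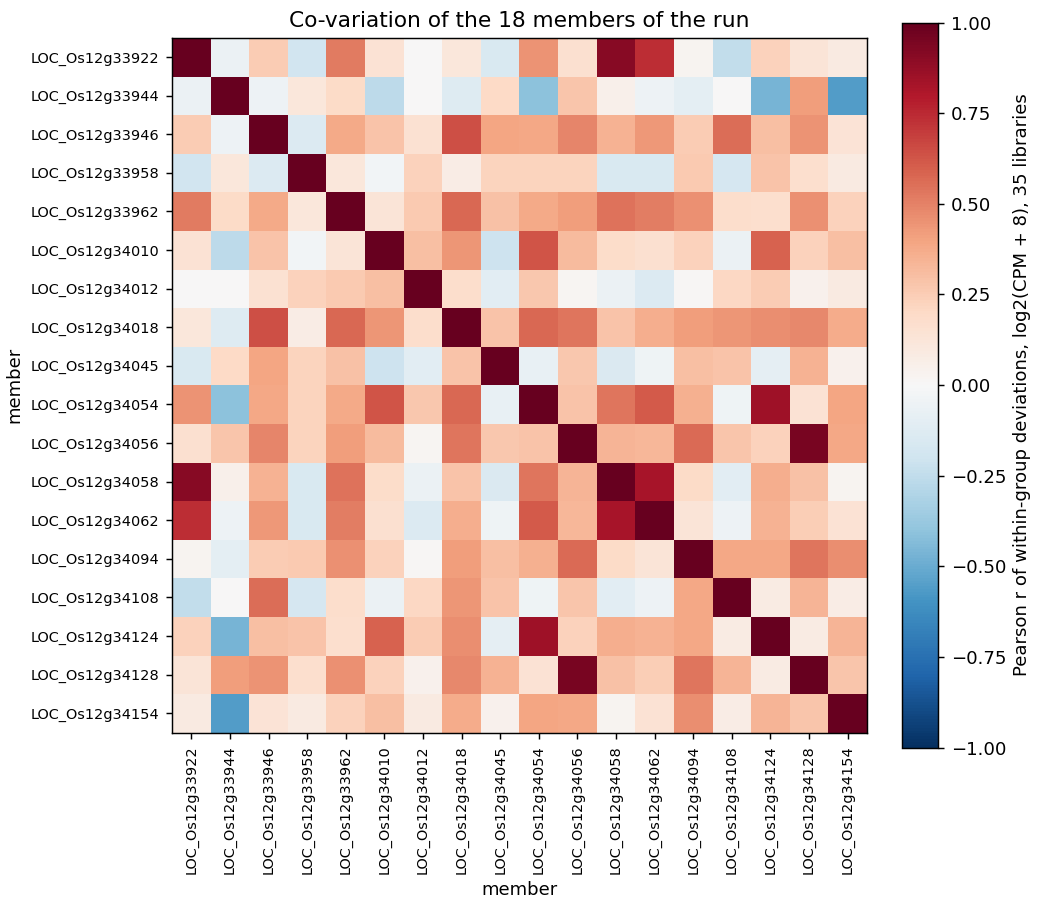
Pearson correlation, across 35 libraries, of the within-group deviations of log2(CPM + 8) for each pair of the 18 members of the run LOC_Os12g33922 to LOC_Os12g34154 (both axes, in locus order). The darkest red squares off the diagonal join LOC_Os12g34056 with LOC_Os12g34128 (0.953) and LOC_Os12g33922 with LOC_Os12g34058 (0.909), and the median pair is at 0.234.

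Few members were called at a single code. With LOC_Os12g34062 and LOC_Os12g39970 counted, R1 gave 4 called members of 129 (3 higher in NIL-Gn1 and 1 lower), R2 gave 2 (1 higher, 1 lower), R4 gave 1 and R5 gave 2 (all higher). Of all 7406 tested loci, the share called was 0.675% at R1 (0.189% higher and 0.486% lower) and 0.500% at R2 (0.0675% higher and 0.432% lower), while R4 had 0.149% (0.108% higher) and R5 0.351% (0.243% higher). Without those 2 loci the counts were 2, 1, 0 and 0 of 127. The 2 at R1 include LOC_Os12g34058, which varied with LOC_Os12g34062 within groups. At R4 and R5 respectively, 10 and 13 of the 127 had an unadjusted p under 0.05, and the smallest adjusted p was 0.489 and 0.157 (edgeR). DESeq2 also called 0 of them at R4 and at R5. The single NIL-Gn1 R4 library was assumed to vary like the other groups. Single libraries moved these small counts. Without Koshihikari R2 replicate 2 the R2 count was 1 and without its replicate 4 it was 4, and the R5 count was 0 without NIL-Gn1 R5 replicate 1 and 1 without any of NIL-Gn1 R5 replicate 2 and Koshihikari R5 replicates 3 and 5. There were 3 calls at R2 when Koshihikari was cut down to its replicates 2 and 3.

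Over R1 and R2 together, the comparison with the most libraries, 13 of 129 members were called, of which NIL-Gn1 was higher for 5 and lower for 8. That was 10.1% of the tested members, against 2.32% of all tested loci (0.608% higher and 1.71% lower). Without LOC_Os12g34062 and LOC_Os12g39970 it was 11 of 127, or 8.66%, with 3 higher and 8 lower. Of the 3 higher, LOC_Os12g33922 and LOC_Os12g34058 varied with LOC_Os12g34062 within groups. In the rest of chromosome 12 the count was 4 of 283, or 1.41%. Among the 1489 table rows centred on OsCKX2, on chromosome 1, it was 21 of 268, or 7.84%, with 8 higher and 13 lower. As the interval was drawn around loci known to differ between these lines, these shares describe it and are no test of it. Leaving out Koshihikari R1 replicate 4 gave 8 calls in place of 13, and keeping 2 and 3 as the replicates of Koshihikari R2 gave 9.

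The sizes of the differences were small for most members. The median size of the log2 fold change over R1 and R2 was 0.263 for the 129 members, 0.223 for the rest of chromosome 12, 0.258 around OsCKX2 and 0.213 for all tested loci. A size of at least 1 was reached by 10 members, or 7.75%, and by 2.40% of all tested loci. It was reached by 8 of the 127 members other than LOC_Os12g34062 and LOC_Os12g39970, or 6.3%, and by 3 of 283 loci in the rest of the chromosome, or 1.06%. The R1 and R2 values, which share no library, correlated across the 127 members at 0.497, across the rest of chromosome 12 at 0.126 and across all tested loci at 0.294 (Pearson across genes, which are not independent, as a description). Around OsCKX2 the value was 0.699. By rank (Spearman) the values were, in the same order, 0.37, 0.201, 0.219 and 0.445.

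**Figure D4:**
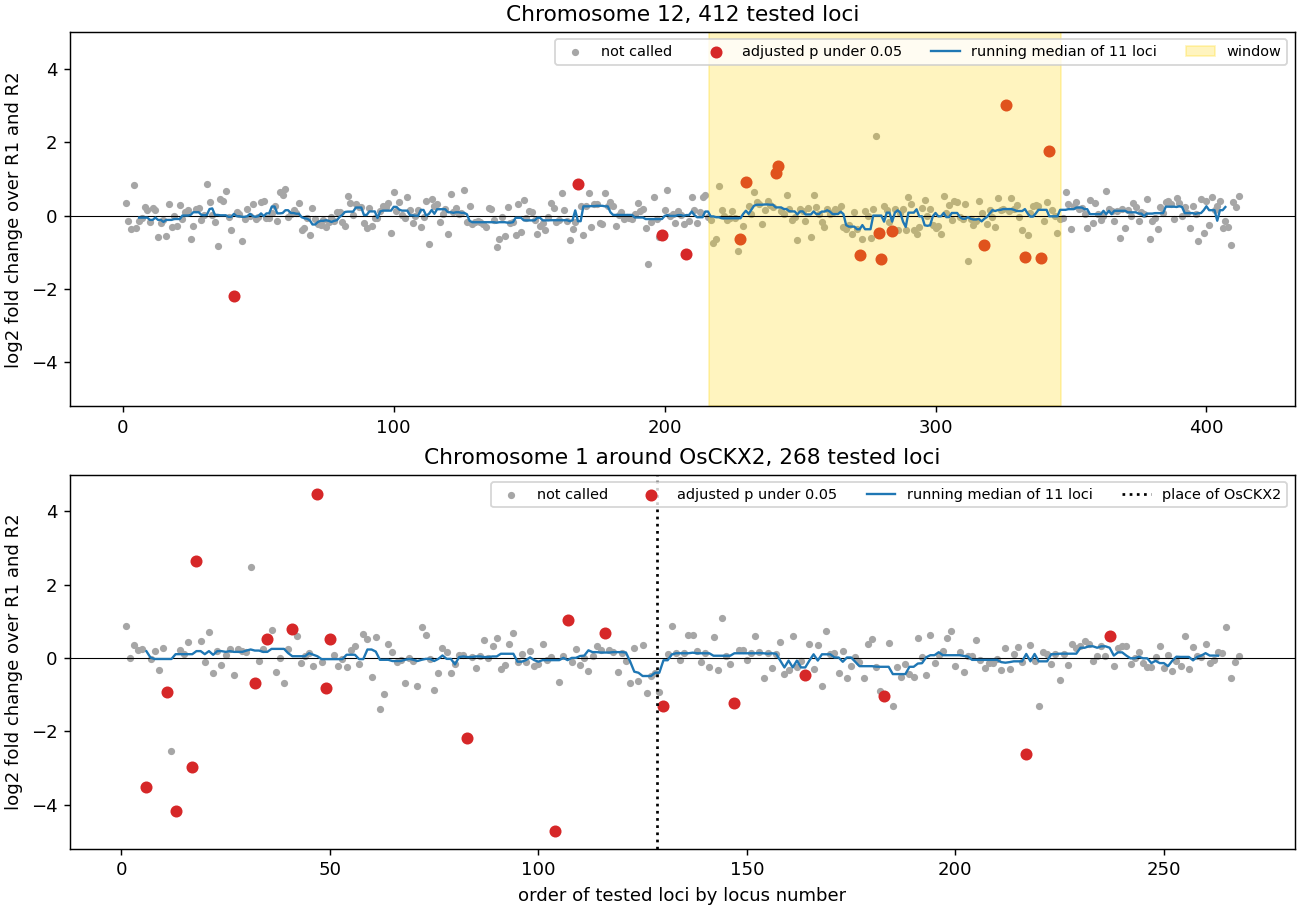
Log2 fold change, NIL-Gn1 minus Koshihikari, over R1 and R2 (vertical axis) for tested loci in order of locus number (horizontal axis), on chromosome 12 (top) and around OsCKX2 on chromosome 1 (bottom), with called loci in red and the running median of 11 loci as a line. Called loci number 13 inside the shaded interval and 4 on the rest of chromosome 12, lie on either side of 0, and the running median stays between −0.37 and 0.30 in the interval.

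The called members did not form a continuous block of like sign. In bins of 1000 locus numbers starting at 32000, the called and tested members numbered 0 of 7, 2 of 11, 2 of 20, 0 of 13, 3 of 13, 1 of 16, 0 of 19, 2 of 12 and 3 of 19. In the bins just before, from 30000 and 31000, 0 of 4 and 1 of 10 loci were called, the latter lower in NIL-Gn1. In the next bins, from 41000 and 42000, 0 of 22 and 0 of 24 loci were called. By share of loci called, the bin from 36000, at 23.1%, ranked 4 among the 351 bins of the genome with at least 10 tested loci, and the bins from 33000, 39000 and 40000 ranked 5, 6 and 7. The bin from 39000 holds LOC_Os12g39970 and that from 34000 LOC_Os12g34062. Without these 2 loci they had 1 of 11 and 1 of 19 called and ranked 28 and 70, and the bin from 40000 ranked 6. The bin from 36000 ranked 1 by the median size of its differences, 0.475. Its 3 called members were all lower in NIL-Gn1 and its median was −0.37, but 8 of its 13 members were below 0 over R1 and R2, and 9, 10, 10 and 6 were below 0 at R1, R2, R4 and R5. Across the interval the running median of 11 consecutive loci went from −0.37 to 0.30. It went from −0.24 to 0.27 over the rest of the chromosome and from −0.49 to 0.32 around OsCKX2.

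Just outside the interval the nearest tested loci were near 0 or not called. LOC_Os12g31830 and LOC_Os12g31840 had log2 fold changes of 0.55 and −0.04 (edgeR adjusted p = 0.533 and 0.971), and LOC_Os12g41140 and LOC_Os12g41180 of −0.08 and 0.63 (edgeR adjusted p = 0.917 and 0.0636).

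Lower in NIL-Gn1 were LOC_Os12g33180, LOC_Os12g36194, LOC_Os12g36890, LOC_Os12g36950, LOC_Os12g37410, LOC_Os12g39200, LOC_Os12g40510 and LOC_Os12g40760. LOC_Os12g36194 was at 116, 109, 128, 170 and 84.8 CPM in Koshihikari at R1 and at 25.3 to 106 CPM (median 51.1) in NIL-Gn1. At R2 it was at 73.3, 82.6, 140, 139 and 112 CPM against 25.6 to 143 CPM (median 42.9). The ranges overlapped at both codes, at R2 through a single NIL-Gn1 library at 143 CPM. Its log2 fold change over R1 and R2 was −1.07 (SE 0.225, edgeR adjusted p = 0.00122), and at R4 and R5 it was 0.14 and 0.87.

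LOC_Os12g40760 was also lower at R1 and R2. Its Koshihikari levels were 52.9, 76.3, 64.2, 67.9 and 58 CPM at R1 and 97.7, 82.6, 48.5, 41.8 and 98.4 CPM at R2. In NIL-Gn1 they were 16.8 to 57.2 CPM (median 28.3) and 8.42 to 46.6 CPM (median 28.4). A single NIL-Gn1 library at R1, at 57.2 CPM, reached the Koshihikari range, and at R2 the top of the NIL-Gn1 range, 46.6 CPM, passed the lowest Koshihikari library. The log2 fold change over R1 and R2 was −1.15 (SE 0.269, edgeR adjusted p = 0.00435), and at R4 and R5 the values were 0.65 and 0.54. When Koshihikari R2 kept replicates 2 and 3 alone it was −1.05 and the call was lost (edgeR adjusted p = 0.0682).

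LOC_Os12g39200 was at 317, 240, 312, 265 and 214 CPM in Koshihikari at R1, against 41.9 to 230 CPM (median 167) in NIL-Gn1, and at 562, 283, 194, 167 and 253 CPM against 85.3 to 228 CPM (median 130) at R2. Of the 8 NIL-Gn1 libraries, 6 at R1 and 5 at R2 were below the Koshihikari range, so the ranges overlapped. The log2 fold change was −0.80 (SE 0.178, edgeR adjusted p = 0.00379), and its values at R4 and R5 were also below 0, at −0.44 and −0.17. The 562 CPM came from replicate 1, and when replicates 2 and 3 alone stood for Koshihikari R2 the value was −0.65 and the call was lost (edgeR adjusted p = 0.0536).

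LOC_Os12g36950 was the lower member called at R1. Its Koshihikari levels there were 31.7, 54.5, 110, 95 and 84.8 CPM, and those of NIL-Gn1 were 0 to 75.4 CPM (median 17.3). The log2 fold change was −1.74 at R1 (edgeR adjusted p = 0.015) and −1.20 over R1 and R2 (SE 0.307, edgeR adjusted p = 0.0132). The R1 call was lost without Koshihikari R1 replicate 3, 4 or 5, with adjusted p-values of 0.0818, 0.0805 and 0.068 (edgeR). The call over R1 and R2 was lost with replicates 2 and 3 alone for Koshihikari R2 (edgeR adjusted p = 0.0523).

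LOC_Os12g36890 was the lower member called at R2. It was at 281, 425, 410, 307 and 337 CPM in Koshihikari and at 135 to 283 CPM (median 187) in NIL-Gn1, with a log2 fold change of −0.81 (edgeR adjusted p = 0.0135). At R1 the same locus was at 229 to 476 CPM in Koshihikari and 225 to 375 CPM in NIL-Gn1, with a log2 fold change of −0.14. The ranges overlapped at both codes, at R2 by 281 against 283 CPM. Its R2 call was lost without Koshihikari R2 replicate 2 or 3 or NIL-Gn1 R2 replicate 4, with adjusted p-values of 0.0787, 0.119 and 0.0503 (edgeR). Over R1 and R2 its value was −0.47 (SE 0.131, edgeR adjusted p = 0.0261). That call was lost without any of 7 libraries, Koshihikari R1 replicates 1 and 4, Koshihikari R2 replicates 2 and 3, NIL-Gn1 R1 replicate 7 and NIL-Gn1 R2 replicates 2 and 4, with adjusted p-values of 0.0504 to 0.106 (edgeR).

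The other called lower members had smaller or less stable differences. LOC_Os12g37410 was lower by −0.43 (SE 0.108, edgeR adjusted p = 0.0109), a call lost without Koshihikari R1 replicate 3 (adjusted p = 0.0702). LOC_Os12g40510, at −1.13 (SE 0.31, edgeR adjusted p = 0.0253), lost its call without Koshihikari R1 replicate 4 (0.0702) or Koshihikari R2 replicate 1 (0.0555) as adjusted p-values. LOC_Os12g33180, at −0.64 (SE 0.19, edgeR adjusted p = 0.0461), lost its call in 23 of 44 alternative fits, most of them without a single library. Of the 8 lower members, 4 were below 0 at R4 and 5 at R5, codes that did not enter the call.

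LOC_Os12g40830 was the remaining higher member. In Koshihikari it was at 10.6, 0, 18.3, 0 and 26.8 CPM at R1 and at 0, 11.8, 5.39, 13.9 and 14.1 CPM at R2. In NIL-Gn1 it was at 27.1 to 92.1 CPM (median 42.4) and 10 to 67.4 CPM (median 26.9). The R1 ranges did not overlap, by 26.8 against 27.1 CPM, and the R2 ranges did. All 10 early Koshihikari values lie below what 3 counts are worth in the shallowest library, and so does the NIL-Gn1 median at R2. In UMIs the locus had 9 at R1 and 4 at R2 in Koshihikari, and 60 and 38 in NIL-Gn1. Its log2 fold change was 1.77 (SE 0.481, edgeR adjusted p = 0.0226). It was lost without Koshihikari R1 replicate 4, Koshihikari R2 replicate 1 or Koshihikari R2 replicate 3, with adjusted p-values of 0.0579, 0.0555 and 0.0635 (edgeR). Keeping only replicates 2 and 3 of Koshihikari R2 also ended it (adjusted p = 0.0954). Of the 3 higher members other than LOC_Os12g34062 and LOC_Os12g39970, all were above 0 at R5 and 1 at R4.

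Range overlap gave few members. NIL-Gn1 was above Koshihikari without overlap for 3 members at R1 and 1 at R2, against 0.351% and 0.297% of all tested loci, and below it for 1 at R1 and 2 at R2, against 0.716% and 0.378%. Those above were LOC_Os12g39970, LOC_Os12g34062 and LOC_Os12g40830 at R1, and LOC_Os12g39970 again at R2. The first 2 were selected on higher counts in NIL-Gn1, and without them 1 of 127 members was above at R1 and 0 at R2. The member below at R1 was LOC_Os12g40510, at 40.2 to 76.3 CPM in Koshihikari and 0 to 32.7 CPM in NIL-Gn1. Below at R2 were LOC_Os12g34890, at 32.4 to 97.6 CPM against 0 to 26.1 CPM, and LOC_Os12g35640, at 53.9 to 94.4 CPM against 16.8 to 51.1 CPM. Neither was called (edgeR adjusted p = 0.181 and 0.206), and both had values above 0 at R1, 0.50 and 0.60. All 4 line differences, which share no library, had the same sign for 32 of 129 members (24.8%) and for 18.8% of all tested loci. Without LOC_Os12g34062 and LOC_Os12g39970 it was 30 of 127 (23.6%), against 21.6% in the rest of chromosome 12 and 29.1% around OsCKX2. Besides those called above, the highest and lowest values over R1 and R2 were those of sparse loci. LOC_Os12g36880 had 18 UMIs in the early NIL-Gn1 libraries and 1 in the early Koshihikari libraries, a ratio per UMI of 8.1 (exact 95% counting interval 1.28 to 338). Its log2 fold change over R1 and R2 was 2.18 (SE 1.41, edgeR adjusted p = 0.524). LOC_Os12g38720 was at −1.25 (SE 0.441, edgeR adjusted p = 0.126).

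The members of high count given here were not called between lines over R1 and R2. LOC_Os12g38000 was at a mean of 1107 ± 212 CPM (SD, n = 5) in Koshihikari and 1132 ± 201 CPM (SD, n = 8) in NIL-Gn1 at R1, with a log2 fold change over R1 and R2 of −0.02 (SE 0.087, edgeR adjusted p = 0.949). LOC_Os12g38140 was at −0.33 (SE 0.0999, edgeR adjusted p = 0.0568) and LOC_Os12g34056 at 0.22 (SE 0.116, edgeR adjusted p = 0.377).

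The line difference was then followed across codes. No member passed the test for a line difference that changed between R1 and R2 (edgeR, 0 of 129), as for 0% of all tested loci. An unadjusted p under 0.05 was found for 7 members and for 446 of all 7406 tested loci. DESeq2 also called 0. None was called for a line difference that changed from early to late codes (0 of 129), against 0.311% of all tested loci. DESeq2 again called 0 members. In edgeR, 22 members and 969 of all 7406 tested loci had an unadjusted p under 0.05. The smallest adjusted p among the members was that of LOC_Os12g40760, 0.0573 (edgeR), whose line difference was higher late by 1.75 (SE 0.461). This locus passed the threshold without any of Koshihikari R2 replicates 3 and 4, Koshihikari R4 replicate 2 and NIL-Gn1 R1 replicate 8, where 1 member was called in place of 0.

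Differences between late and early codes within a line were not used to choose the interval. In Koshihikari, 21 of 129 members were called (8 higher and 13 lower late), or 16.3%, against 16.5% of all tested loci (8.87% higher and 7.60% lower), so the share was close to that of the whole table. In NIL-Gn1, with 3 late libraries, 6 were called (5 higher, 1 lower), or 4.65%, against 3.93% of all tested loci (2.89% higher and 1.04% lower). The count in NIL-Gn1 was 3 without NIL-Gn1 R5 replicate 1 and 7 without replicate 2. Called in both lines were LOC_Os12g37650, LOC_Os12g32620 and LOC_Os12g36880, higher late, and LOC_Os12g38440, lower late.

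LOC_Os12g37650 had the smallest p of the members in each line. In Koshihikari it was at 95.2, 54.5, 27.5, 54.3 and 53.6 CPM at R1, at 24.4, 94.4, 43.2, 27.9 and 14.1 CPM at R2, at 449, 543 and 266 CPM at R4 and at 866, 587 and 287 CPM at R5. In NIL-Gn1 it was at 0 to 61.4 CPM (median 30.8) at R1, at 17.5 to 68.3 CPM (median 42.3) at R2, at 581 CPM at R4 and at 632 and 366 CPM at R5. Late and early libraries did not overlap in either line. It was higher late by 3.32 in Koshihikari (SE 0.264, edgeR adjusted p = 3.84e-16) and by 3.86 in NIL-Gn1 (SE 0.253, edgeR adjusted p = 3.65e-20).

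LOC_Os12g36880 was at 0 in 9 of 10 early Koshihikari libraries. These libraries had 1 UMI and the late ones 188, a ratio per UMI of 354 (exact 95% counting interval 62.8 to 14069). Such intervals leave out the spread between libraries. In the edgeR fit of group means it was higher late by 7.39 on the log2 scale (SE 0.913, edgeR adjusted p = 2.19e-06). Its late Koshihikari levels were 121, 82 and 277 CPM at R4 and 1068, 122 and 191 CPM at R5. The library at 1068 CPM, Koshihikari R5 replicate 2, held 111 of the 188 UMIs. Without it the ratio was 178 (exact 95% counting interval 30.9 to 7106), and the edgeR fit of group means gave an adjusted p of 9.58e-13. In NIL-Gn1 it had 18 early and 61 late UMIs, a ratio of 17.6 (exact 95% counting interval 10.3 to 31.7). In the edgeR fit it was higher late there by 3.57 (SE 0.864, edgeR adjusted p = 0.0157). Its late NIL-Gn1 levels were 39.5 CPM at R4 and 292 and 30.5 CPM at R5, and without the library at 292 CPM, NIL-Gn1 R5 replicate 1, the call was lost (edgeR adjusted p = 0.539).

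LOC_Os12g32620 was at 5.39 to 48.9 CPM in the early Koshihikari libraries, at 132, 256 and 133 CPM at R4 and at 231, 210 and 78.2 CPM at R5. Again no late library fell in the early range. It was higher late by 2.73 in Koshihikari (SE 0.346, edgeR adjusted p = 3.88e-10) and by 1.66 in NIL-Gn1 (SE 0.328, edgeR adjusted p = 0.000145). LOC_Os12g38440 was lower late by −1.34 in Koshihikari (SE 0.318, edgeR adjusted p = 0.00116) and by −1.45 in NIL-Gn1 (SE 0.335, edgeR adjusted p = 0.00245). The NIL-Gn1 call was lost without NIL-Gn1 R5 replicate 1 (edgeR adjusted p = 0.129).

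LOC_Os12g40760, lower in NIL-Gn1 at the early codes, was called late in NIL-Gn1, higher by 1.99 (SE 0.332, edgeR adjusted p = 2.84e-06). Its late levels were 121, 61.5 and 44.3 CPM at R4 and 106, 88.6 and 60.8 CPM at R5 in Koshihikari, and 119 CPM at R4 and 143 and 91.4 CPM at R5 in NIL-Gn1. The late ranges of the lines overlapped, and the difference between the lines' changes is the 1.75 given above, which did not pass the test. LOC_Os12g37870 was higher late in NIL-Gn1 by 0.90 (edgeR adjusted p = 0.0207), which did not pass with NIL-Gn1 R5 replicate 1 left out (edgeR adjusted p = 0.405).

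**Figure D5:**
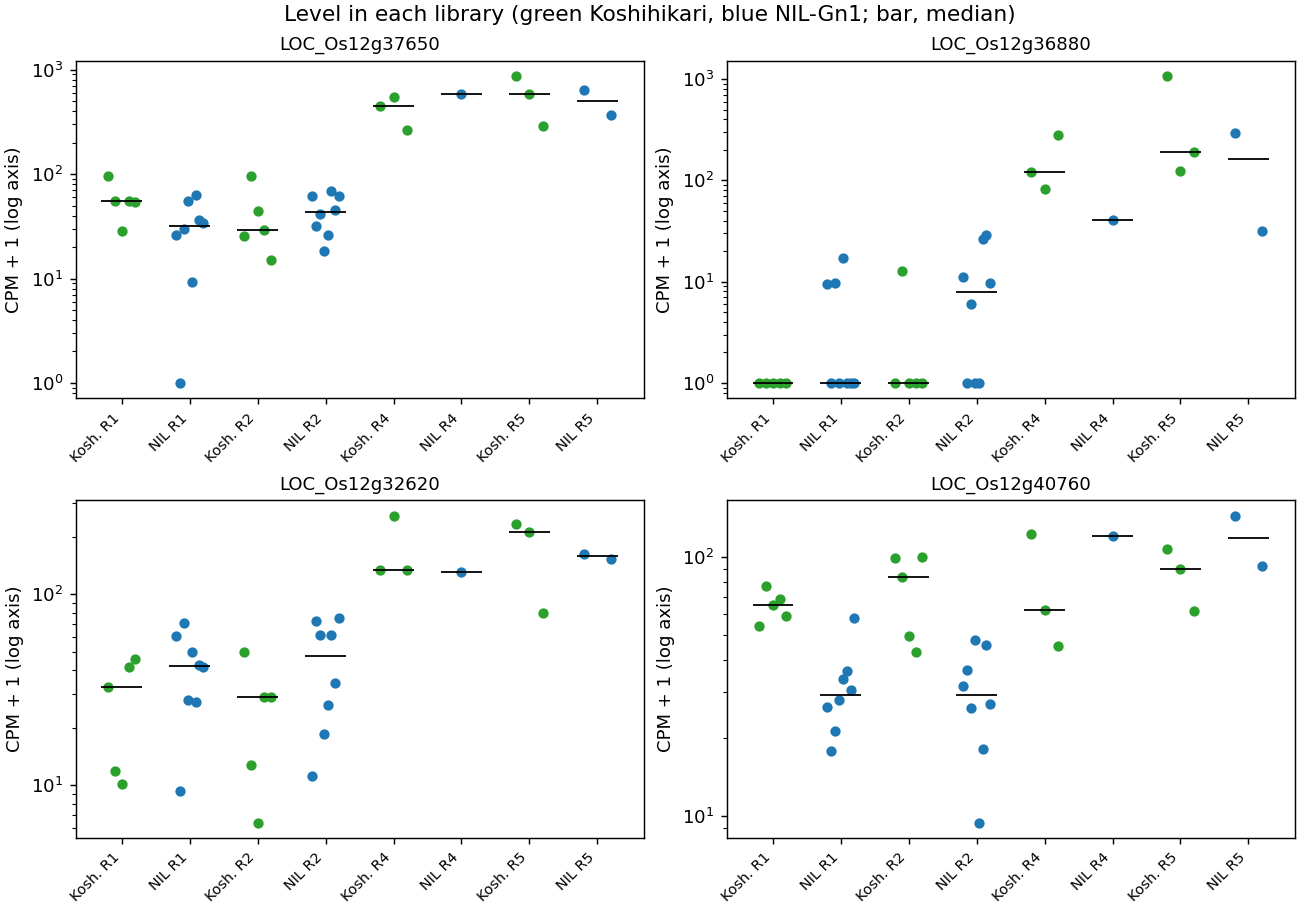
Level (CPM + 1, log axis) of LOC_Os12g37650, LOC_Os12g36880, LOC_Os12g32620 and LOC_Os12g40760 in each library, by line and code, with a bar at the median of each group. For LOC_Os12g37650 the R4 and R5 libraries sit between 266 and 866 CPM and the R1 and R2 libraries between 0 and 95.2 CPM in both lines, and for LOC_Os12g40760 the NIL-Gn1 libraries are low at R1 and R2.

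In Koshihikari, LOC_Os12g38000 and LOC_Os12g37419 were also higher late, by 0.59 (SE 0.109, edgeR adjusted p = 1.9e-05) and 0.85 (SE 0.188, edgeR adjusted p = 0.000365). The lowest p among the falling members were those of LOC_Os12g40890, at −1.71 (SE 0.274, edgeR adjusted p = 6.29e-07), LOC_Os12g38150, at −1.45 (SE 0.201, edgeR adjusted p = 8.96e-07), and LOC_Os12g34012 and LOC_Os12g34018 of the densely numbered run. The last 2 were at −1.39 (SE 0.238, edgeR adjusted p = 2.73e-06) and −0.72 (SE 0.142, edgeR adjusted p = 5.87e-05). In that run none of 18 members had a positive late value in Koshihikari and 3 were called lower. Of all 7406 tested loci, 3388 had a positive late value in Koshihikari and 7.60% were called lower. In NIL-Gn1, 1 of 18 was positive and none was called (edgeR, 7 at an unadjusted p under 0.05). For late against early in NIL-Gn1, 3357 of all 7406 tested loci were positive, 3.93% were called and 1127 had an unadjusted p under 0.05. Members of the run varied together within groups, as given above, so its 18 values are not independent. LOC_Os12g34062 itself was at −0.54 late in each line, and neither value passed the test (edgeR adjusted p = 0.335 and 0.401).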

How the data were processed

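Per the labels' protocols, total RNA of inflorescence meristems was extracted and 100 pg was amplified for modified CEL-Seq2 libraries. The authors deposited 1 table of raw UMI counts for 55801 loci in 35 libraries, without normalization. Bowtie2 and Subread 2.1 are named, per the submitters' processing notes, while the genome build and annotation are not given in the sources used here. Members and lists were chosen with earlier results of these data known.

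All 35 libraries entered a single fit of the counts in edgeR 4.0.16 under R 4.3.3, using TMM scaling, the filterByExpr filter, a mean for each of 8 groups and robust quasi-likelihood F-tests. Of the 55801 loci 7406 were tested, with 86.7% of UMIs. Adjusted p-values are Benjamini-Hochberg over these loci, called under 0.05. CPM use TMM-scaled totals. SEs are the log2 fold change divided by the square root of F. Correlations use log2(CPM + 8). Fits were tested on simulated counts. No library was a duplicate (83 pairs, chi-square per degree of freedom at least 1.37).

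Named loci were LOC_Os12g34062 and LOC_Os12g39970, their neighbours, members called between lines, the highest and lowest over R1 and R2, the smallest p late against early, and edges of the interval. LOC_Os12g38140, LOC_Os12g34056, LOC_Os12g34890, LOC_Os12g35640 and loci of the run were added after their values were seen, as was the run itself. OSH1 and OsCKX2 were assigned to locus names from general knowledge. Alternatives used RLE and upper quartile scaling, other filters, DESeq2 1.42.0, limma-voom (limma 3.58.1), only the groups compared, a replicate block, and each library left out. A fit keeping only replicates 2 and 3 of Koshihikari R2, correlations without its other replicates, and a ratio without 1 library were chosen after seeing the data. The reference table held 0 rows with these locus names. Tables and plots used Python 3.11.15, pandas 2.3.3, numpy 2.4.6 and matplotlib 3.10.9.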

Additional observations from a re-analysis of the deposited data

Results flagged for a closer look

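Among 52 groups of 4 or more libraries for the 13 members called over R1 and R2, 3 held a library far from the others by Dixon's test, which chance flags in about 1 of 20 groups. For LOC_Os12g36194, NIL-Gn1 R2 replicate 1 was at 143 CPM and the next library at 56.5 CPM. For LOC_Os12g36950, NIL-Gn1 R1 replicate 2 was at 75.4 CPM and the next at 23.1 CPM. For LOC_Os12g40760, NIL-Gn1 R1 replicate 8 was at 57.2 CPM and the next at 35.1 CPM. All 3 loci were called lower in NIL-Gn1, where a high NIL-Gn1 library lies toward the Koshihikari levels by construction.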

How the results depend on the processing

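Across 44 alternative settings no log2 fold change of a named member turned its direction where it had been called. Of 640 alternative values of the log2 fold change over R1 and R2, for 15 loci, 587 were unchanged, 52 lost the call and 1 moved by more than its SE. Unchanged means a move within the SE for LOC_Os12g34062 and LOC_Os12g39970, and the same direction and side of the threshold for the others. Fits whose filter left a locus out gave no value and are not among the 640. The log2 fold change over R1 and R2 stayed between 2.84 and 3.13 for LOC_Os12g39970 and between 1.20 and 1.99 for LOC_Os12g34062. At single codes LOC_Os12g39970 ranged from 2.60 to 2.92 at R1, from 2.95 to 3.47 at R2 and from 3.41 to 4.25 at R4, and at R5 from 1.55 without Koshihikari R5 replicate 5 to 2.69 without its replicate 3. LOC_Os12g34062 ranged from 1.59 to 1.85 at R1 and from 0.30 to 0.64 at R4. Its R2 value was lowest, 0.69, without Koshihikari R2 replicate 3 and highest, 2.27, with replicates 2 and 3 alone, and its R5 value was 1.87 without NIL-Gn1 R5 replicate 2 and 2.69 without replicate 1. LOC_Os12g34058 kept its calls at R1 and over R1 and R2 in all 44. The number of members called at R2 (2) was 1 with no filter and 5 at an adjusted p under 0.1. The number at R5 (2) was 1 with limma-voom and 1 with the replicate block. The number with a line difference that changed from early to late codes (0) was 1 with upper quartile scaling, 1 with limma-voom and 1 at an adjusted p under 0.1. Leaving out each library in turn gave 3 to 6 members at R1, 1 to 4 at R2, 1 to 1 at R4, 0 to 2 at R5 and 8 to 15 over R1 and R2. It gave 19 to 23 for late against early in Koshihikari, 3 to 7 in NIL-Gn1, 0 to 0 for the change between R1 and R2, and 0 to 1 for the change from early to late. Comparisons that use NIL-Gn1 R4 could not be fitted once that single library was left out. Deviations from group means correlated at −0.0266 to 0.0786 for libraries of the 2 lines with the same replicate number. For pairs with different numbers the range was −0.0677 to 0.0795. With the replicate number as a block 9 members were called over R1 and R2, in place of 13. LOC_Os12g33922, LOC_Os12g36194, LOC_Os12g36950, LOC_Os12g37410 and LOC_Os12g40830 lost that call, with adjusted p-values of 0.14, 0.0703, 0.0919, 0.16 and 0.0909 (edgeR), and LOC_Os12g36740 gained one, lower in NIL-Gn1 by −0.82 (edgeR adjusted p = 0.0342). Depth limits the sparse members, since 37 of 166 could not be tested and 3 counts equal 39.1 CPM in the shallowest library. The median depth was higher in NIL-Gn1, and its part in the differences was not tested.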

Other observations

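The 37 members too sparse for the test can be described by the NIL-Gn1 share of their UMIs. Its median was 66.8%, beside 63.4% for all UMIs of the table, with a range from 41.7% for LOC_Os12g35580 (exact 95% interval 32.6 to 51.3%) to 74.3% for LOC_Os12g37890 (66.1 to 81.4%). Among 122 rows of the interval with 10 to 99 UMIs, below the minimum for members, the median share was 66.1%. LOC_Os12g38880 had 37 of 39 UMIs from NIL-Gn1 (exact 95% interval 82.7 to 99.4%) and LOC_Os12g32230 24 of 26 (74.9 to 99.1%), while LOC_Os12g40440 had 13 of 39 (19.1 to 50.2%). These 3 rows and LOC_Os12g39990 were picked after their values were seen, and the intervals cover counting error only.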
